A study of Homo sapiens with 12 samples.

Results

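The genes described are the fibroblast growth factors (FGFs), their receptors FGFR1 to FGFR4, and genes that ERK signalling switches on and whose products then restrain it: Sprouty (SPRY1 to SPRY4), Spred (SPRED1 to SPRED3) and the dual-specificity phosphatases DUSP4, DUSP5 and DUSP6. They were chosen by gene symbol alone, among probe sets annotated to a single gene, which gave 36 of the 19775 genes measured, read by 88 probe sets. Each gene was represented by its probe set with the highest mean over all arrays. RNA came from H9, a widely used human embryonic stem cell line, at passages 28 to 35, carrying a Tet-on construct that expresses the orphan nuclear receptor GCNF (gene NR6A1) when doxycycline (Dox) is given. All 12 arrays, controls included, came from cells labelled as carrying it. There were 4 groups of 3 arrays, labelled biological replicates without a statement on how cultures were separated, so the p-values reflect only how far these arrays spread, which may be technical. Differentiating cells were kept for 6 days in DMEM/F12 with 15% serum and either 1 µg/ml Dox (Dox-labelled day 6) or 1 µM retinoic acid (RA-labelled day 6). Undifferentiated cells in mTeSR medium on a basement membrane coat were given Dox at 1 µg/ml over 4 days (the group d0 with Dox) or nothing (d0). No Dox-treated cells without the construct and no day 6 cells without an added agent were analysed here, and what Dox does by itself cannot be told apart from what GCNF does.

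FGFs bind receptor tyrosine kinases on the cell surface together with heparan sulfate, and the receptors pass the signal through RAS, RAF and MEK to ERK. ERK switches on Sprouty and Spred genes, whose products damp the cascade upstream of ERK, and DUSP4, DUSP5 and DUSP6, whose products remove the activating phosphates from ERK itself. Human embryonic stem cells need FGF2 for self-renewal, and media such as mTeSR supply it as a protein. FGF8 and FGF4 are known from the early embryo, and FGF19 acts as a hormone in bile acid control and as a signal in the embryonic nervous system.

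Deposited values were probe set intensities on a linear scale, and tests used log2(intensity + 16). Array medians lay between 64.2 and 78.0, the median gene stood at 221, and precision is limited by how few arrays there are. "Rose", "fell" and "called" are used of genes with an adjusted p under 0.05 in limma (Benjamini-Hochberg over all genes), log2 fold changes carry their standard error, and means carry the SD, with n = 3 arrays per group. The labels were checked on NR6A1, which all 7 of its probe sets showed higher in d0 with Dox than in d0. At day 6 only 3 of the 7 were higher in the Dox-labelled arrays, among them the one that represents the gene. The other 4, which had the highest folds with Dox at d0, were higher in the RA-labelled arrays. The retinoic acid marker CYP26A1, an enzyme that retinoic acid induces, read 29590.0 ± 1005 in the Dox-labelled and 271 ± 37.0 in the RA-labelled arrays, against the labels. Every direction between the day 6 groups therefore rests on labels that these probe sets do not bear out, and exchanging the labels would turn the sign of each such difference. Of 8 pluripotency markers listed, 7 were measured. Their summed intensity was 13800 to 14900 in the Dox-labelled and 13500 to 14800 in the RA-labelled day 6 arrays, 80400 to 84500 in d0 with Dox and 90200 to 97200 in d0. Of these 7, 2 were called higher and 4 lower in Dox-labelled than in RA-labelled day 6 arrays, moves that the sums hide. In bulk RNA, fewer cells of a type and less RNA per cell cannot be told apart.

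With Dox in undifferentiated cells the receptors FGFR3, FGFR1 and FGFR2 rose, while the ligands FGF8, FGF16, FGF19 and FGF18 and the feedback genes SPRY4 and DUSP5 fell. FGFR3 reached 3.6-fold of its d0 signal and FGFR1 2.13-fold, and FGF8 was 2.88-fold lower. FGF9 was the only ligand to rise. Of the 36 genes, 6 rose and 6 fell (33.3% in all) and 24 did not pass, where 12.9% of all genes were called, 7.75% higher and 5.16% lower. The median log2 fold change was -0.10 over the 36 genes and 0.03 over all genes.

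At day 6 the Dox-labelled arrays had more signal than the RA-labelled ones for 8 of the 36 genes and less for 2, or 27.8% in all, where 25.9% of all genes were called (13.7% higher and 12.2% lower). FGF13, FGF9, SPRY1 and FGF18 differed by more than a doubling, and FGFR2, SPRY2, FGF12 and DUSP4 by less. FGFR3 and SPRY4 were lower in the Dox-labelled arrays. The median log2 fold change was 0.05 over the 36 genes and 0.00 over all genes.

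Between day 0 and day 6 the receptors fell together. All 4 fell in the RA-labelled arrays against d0 and in the Dox-labelled arrays against d0 with Dox, as did FGF2, FGF4, FGF8 and FGF19. Against this FGF1, FGF11, SPRED2 and SPRED3 rose in both comparisons. In RA-labelled arrays against d0, 4 genes rose and 16 fell, or 55.6%, where 50.5% of all genes were called (25.3% higher and 25.2% lower). In Dox-labelled day 6 arrays against d0 with Dox, 7 rose and 12 fell, or 52.8%, where 46.1% of all genes were called (22.2% higher and 23.9% lower). Centring each array on its median moved the median of all genes by 0.14 there, and 60% instead of 48.2% of all called genes were then higher. The median log2 fold change of the 36 genes was -0.32 in RA-labelled arrays against d0 and -0.17 in Dox-labelled day 6 arrays against d0 with Dox, where that of all genes was -0.01 and -0.03. Each group stands in 2 of the 4 comparisons, so these share arrays. The medium changed with the day, and the withdrawal of a medium that contains FGF2 protein, the serum, the days in culture and the added agents cannot be told apart in these comparisons.

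**Figure D1:**
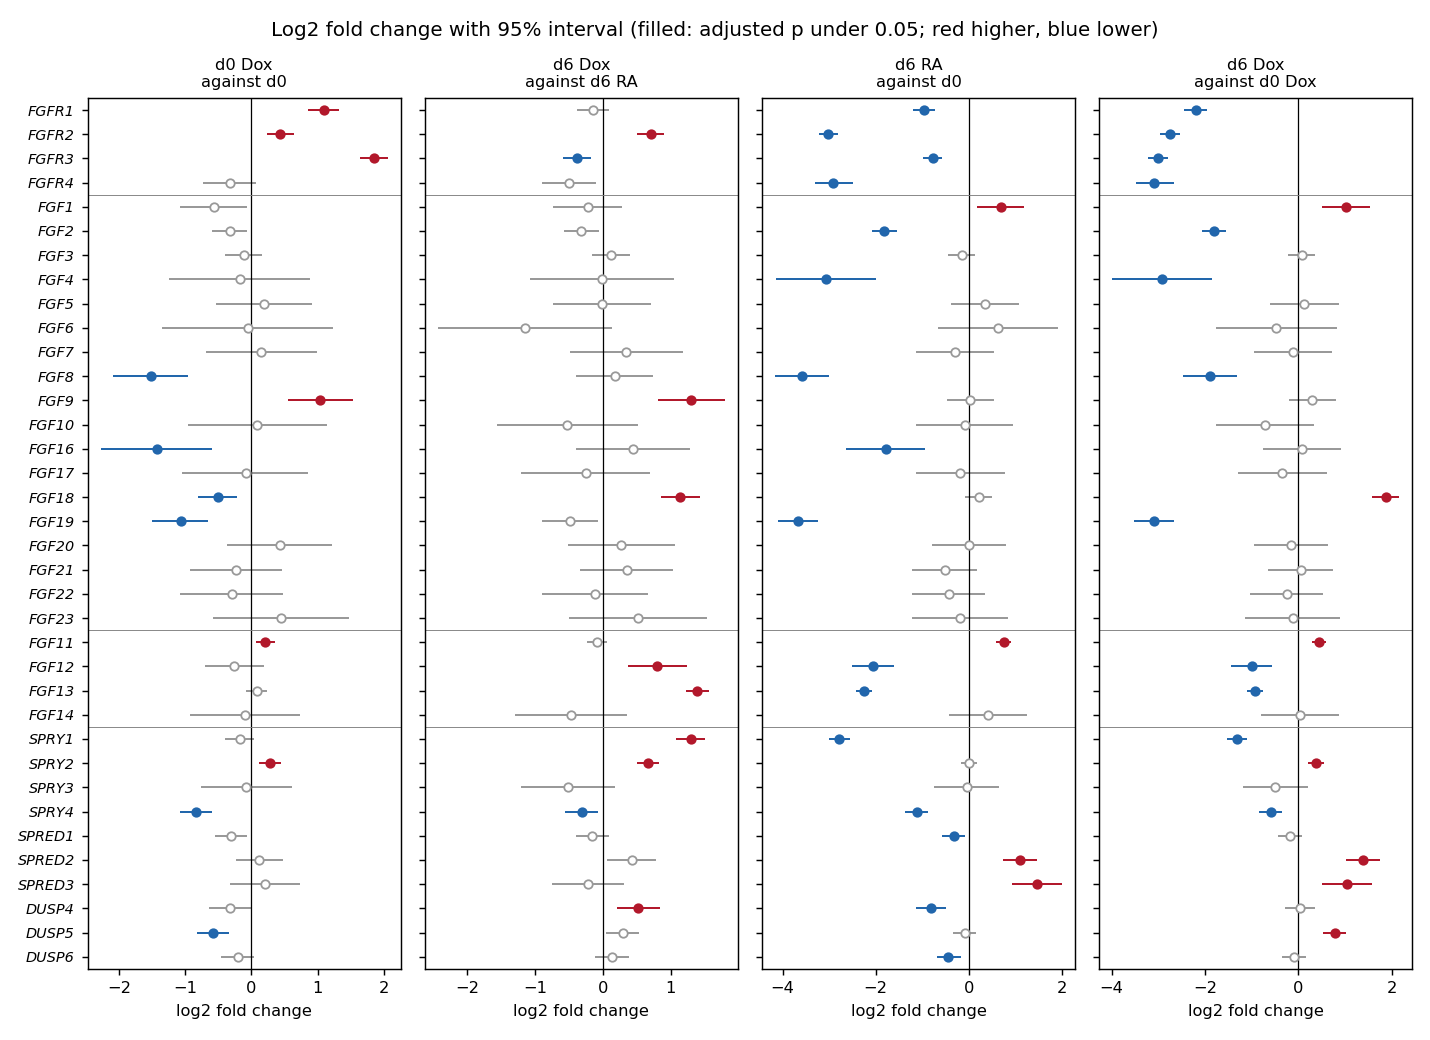
Log2 fold change (x axis) with its 95% interval for all 36 genes (y axis) in the 4 comparisons, one panel each; filled red marks called higher, filled blue called lower, open grey not called. The receptors at the top rise with Dox at d0, apart from FGFR4, and all lie left of zero in both day 6 against day 0 panels.

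Among the receptors, FGFR3 moved most with Dox at d0. It read 1050.5, 1073 and 866 in the Dox-labelled and 1339, 1271 and 1294 in the RA-labelled day 6 arrays, 7969, 7965 and 8421 in d0 with Dox and 2259.8, 2222 and 2242 in d0. No 2 groups overlapped, and the 3 arrays of d0 with Dox stood far above the other 9. The log2 fold change was 1.85 ± 0.08 for d0 with Dox against d0 (adjusted p = 1.41e-06) and -0.39 ± 0.08 for Dox-labelled against RA-labelled day 6 arrays (adjusted p = 0.007). Over time it was -0.78 for RA-labelled arrays against d0 and -3.01 for Dox-labelled day 6 arrays against d0 with Dox. The other FGFR3 probe set, with every group mean under 50, went the same way at d0 without being called (0.77). With the mean of both probe sets the gene was not called at day 6 (-0.26, adjusted p = 0.484) or in RA-labelled arrays against d0 (-0.27, adjusted p = 0.379).

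FGFR1, a receptor for FGF2, read 1469.8, 1544 and 1501 in Dox-labelled and 1513, 1946 and 1577 in RA-labelled day 6 arrays, 7574, 6818 and 6513 in d0 with Dox and 3275, 3258 and 3250.4 in d0. All arrays of d0 with Dox lay above those of d0, and the day 6 groups overlapped. FGFR1 rose with Dox at d0 by 1.09 ± 0.10 (adjusted p = 8.77e-05), and all 6 other probe sets were higher too (0.08 to 1.29), 4 of them called. The day 6 difference was -0.15 with a 95% interval of -0.37 to 0.07, and the falls over time were -0.96 in RA-labelled and -2.20 in Dox-labelled arrays. At day 6 another bright probe set was called lower in Dox-labelled arrays (1297 ± 47.7 against 1696 ± 156, log2 -0.38, adjusted p over probe sets = 0.0317). The rest were not called there (-0.24 to 0.09).

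FGFR2 read 1098, 1139.6 and 929.6 in Dox-labelled and 618, 660.3 and 639.5 in RA-labelled day 6 arrays, 7027, 7135 and 7247 in d0 with Dox and 5394, 5478 and 4989 in d0. The groups lay apart in each of the 4 comparisons, and under the labels as given FGFR2 was higher in both groups labelled Dox than in their partners, by 0.43 ± 0.08 at d0 (adjusted p = 0.00801) and 0.71 ± 0.08 at day 6 (adjusted p = 0.000178). With the day 6 labels exchanged that would hold for FGFR3 and not for FGFR2. Over time FGFR2 fell by 8.09-fold in RA-labelled arrays and 6.7-fold in Dox-labelled ones. Of its 10 other probe sets, 9 were higher with Dox at d0 and 1 of these was called, while 7 were higher in Dox-labelled day 6 arrays and 2 of these were called. The mean of all its probe sets was not called at day 6 (0.31, adjusted p = 0.0737).

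FGFR4 read 158, 149 and 109 in Dox-labelled and 260.0, 191 and 161 in RA-labelled day 6 arrays, 1261, 1427 and 1152 in d0 with Dox and 1609, 1595 and 1608 in d0. Here d0 with Dox lay just under d0, the opposite side from the other receptors, without passing the test (-0.33, 95% interval -0.71 to 0.06, adjusted p = 0.265). The day 6 groups did not overlap, and the difference just missed the threshold (-0.50, adjusted p = 0.0584). It was called without RA-labelled replicate 3 (-0.64, adjusted p = 0.0261), with the mean of its probe sets (-0.70, adjusted p = 0.00707), among genes at or above the median gene (adjusted p = 0.0179) and with a trended robust variance (adjusted p = 0.0205). FGFR4 fell 7.49-fold in RA-labelled arrays against d0 and 8.44-fold in Dox-labelled arrays against d0 with Dox.

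**Figure D2:**
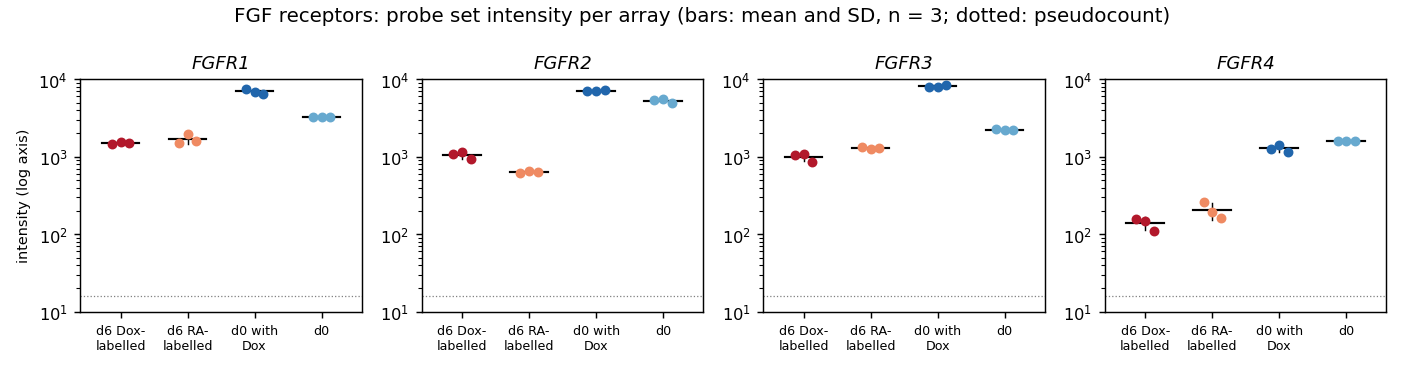
Intensity on a log axis of FGFR1 to FGFR4 in each of the 12 arrays, by group, with the mean and SD (n = 3) as black bars and the pseudocount of 16 as a dotted line. FGFR3 stands at 8118 in d0 with Dox against 2241 in d0, and all 4 receptors are lower at day 6.

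Promoter windows show the sequence at the start of genes that rose (FGFR3, FGFR2) or fell (SPRY4, FGF18) with Dox at d0. RefSeq windows of build GRCh38.p14 were matched by symbol for 26 of the 36 genes, taking the start farthest upstream where a gene had several. Each window printed holds the 250 bases before the start, on the gene's strand, in lower case, and capitals mark GGGCGG or its reverse complement CCGCCC, the GC box. The windows lie at chr4:1793043-1793292 (FGFR3, plus strand), chr10:121598445-121598694 (FGFR2, minus strand), chr5:142324248-142324497 (SPRY4, minus strand) and chr5:171419397-171419646 (FGF18, plus strand).
FGFR3: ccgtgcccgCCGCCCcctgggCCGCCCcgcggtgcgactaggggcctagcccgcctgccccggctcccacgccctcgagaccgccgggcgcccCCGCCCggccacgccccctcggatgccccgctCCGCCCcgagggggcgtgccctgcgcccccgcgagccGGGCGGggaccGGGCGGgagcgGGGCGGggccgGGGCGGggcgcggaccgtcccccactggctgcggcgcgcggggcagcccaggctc
FGFR2: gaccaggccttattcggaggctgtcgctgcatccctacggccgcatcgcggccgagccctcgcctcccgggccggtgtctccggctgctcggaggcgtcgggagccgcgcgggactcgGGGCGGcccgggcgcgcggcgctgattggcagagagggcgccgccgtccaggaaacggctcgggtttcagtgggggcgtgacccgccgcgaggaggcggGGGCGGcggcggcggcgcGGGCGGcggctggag
SPRY4: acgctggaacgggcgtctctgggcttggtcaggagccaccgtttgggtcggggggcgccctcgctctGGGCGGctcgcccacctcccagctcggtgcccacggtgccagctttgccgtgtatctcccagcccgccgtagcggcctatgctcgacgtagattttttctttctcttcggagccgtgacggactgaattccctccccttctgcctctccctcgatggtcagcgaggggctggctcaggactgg
FGF18: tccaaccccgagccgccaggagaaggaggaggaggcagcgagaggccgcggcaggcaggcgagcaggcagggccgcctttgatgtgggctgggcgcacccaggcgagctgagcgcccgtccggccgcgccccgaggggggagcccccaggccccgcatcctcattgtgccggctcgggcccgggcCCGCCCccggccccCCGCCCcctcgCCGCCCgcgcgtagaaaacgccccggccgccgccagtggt
The GC box occurred 8 times before FGFR3, 3 times before FGFR2 and FGF18 and in 1 place before SPRY4. Both strands were searched, with overlaps counted. It was in 15 of the 26 windows used and in 42.5% of all 34943 windows of this length. GC content was 86.8%, 78.4%, 65.6% and 78.8% in the order printed. The median was 65.2% over the 26 windows and 58% over all. Nuclear receptors, GCNF among them, recognise AGGTCA. That short site, searched on both strands, was in none of the 4 windows, in 3 of the 26 (FGF6, FGF7 and FGF23) and in 12.1% of all windows. The longer TCAAGGTCA, which contains it, was in none of the 26 windows and in 0.321% of all. These counts concern the letters of these windows only.

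Among the ligands, FGF8 and FGF19 fell in the same 3 comparisons. FGF8 read 18.2, 2.88 and 3.70 in Dox-labelled and 4.61, 6.73 and 3.22 in RA-labelled day 6 arrays, 58.8, 59.6 and 99.4 in d0 with Dox and 254, 189 and 264 in d0. The 3 d0 arrays were the highest and all but 1 of the day 6 arrays lay under the pseudocount, so that the size of the fall over time depends on it. With Dox at d0 FGF8 fell by 2.88-fold (log2 -1.52 ± 0.25, adjusted p = 0.00327). FGF19 read 6.82, 4.56 and 3.48 in Dox-labelled and 13.1, 5.73 and 24 in RA-labelled day 6 arrays, 160.1, 150.3 and 176 in d0 with Dox and 370.1, 351.1 and 356 in d0. It was thus 2.11-fold dimmer with Dox at d0 (-1.07 ± 0.18, adjusted p = 0.00391) and near or under the pseudocount at day 6. With a pseudocount of 1 the d0 calls of FGF8 (-1.71, adjusted p = 0.0778) and FGF19 (-1.14, adjusted p = 0.104) were lost. Without RA-labelled replicate 2, FGF19 was called lower in the Dox-labelled day 6 arrays (-0.71, adjusted p = 0.0062).

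FGF16 and FGF18 also fell with Dox at d0, at low signal. FGF16, a relative of FGF9, averaged 15.6 ± 11.7 in Dox-labelled and 6.64 ± 6.10 in RA-labelled day 6 arrays, 14.4 ± 14.2 in d0 with Dox and 61.2 ± 11.4 in d0, so that d0 was the only group clearly above the pseudocount. FGF18, a relative of FGF8 known from bone and lung, read 283, 334 and 369 in Dox-labelled and 139, 160.5 and 120.5 in RA-labelled day 6 arrays, 81.7, 78.7 and 73.9 in d0 with Dox and 104, 126 and 126 in d0. Its lowest group was d0 with Dox and its highest Dox-labelled day 6, and these 2 differed 3.64-fold. The log2 fold change was -0.51 ± 0.12 at d0 (adjusted p = 0.0217) and 1.14 ± 0.12 between the day 6 groups (adjusted p = 9.48e-05). Of 5 dimmer FGF18 probe sets, 4 went the same way at day 6 and 1 was called the other way (-0.99), and the mean over probe sets was not called at d0 (-0.36, adjusted p = 0.171) or day 6 (0.32, adjusted p = 0.158). At d0 the FGF16 call was lost without any 1 of the 6 arrays except replicate 2 of d0 with Dox (adjusted p up to 0.101), and the FGF18 call without replicate 2 or 3 of either group (adjusted p up to 0.0738).

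FGF9, a ligand that testis and lung development need, ran opposite to these at d0. It averaged 137 ± 15.7 in Dox-labelled and 47.4 ± 17.6 in RA-labelled day 6 arrays, 108 ± 12.9 in d0 with Dox and 45.6 ± 14.9 in d0. Both groups labelled Dox lay above both others without overlap, with log2 fold changes of 1.03 ± 0.21 at d0 (adjusted p = 0.0111) and 1.30 ± 0.21 at day 6 (adjusted p = 0.00142), and its second probe set was called in the same directions (0.97 and 1.11). Against their day 0 groups the day 6 arrays showed no call for FGF9 (0.03 and 0.30).

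FGF2, the ligand of stem cell self-renewal, read 432, 409.9 and 442 in Dox-labelled and 517, 630.2 and 479.6 in RA-labelled day 6 arrays, 1461, 1534 and 1609.9 in d0 with Dox and 2138, 1939 and 1754 in d0. The Dox-labelled group lay below its partner without overlap on both days, and neither difference passed (-0.33 at d0, adjusted p = 0.075; -0.32 at day 6, adjusted p = 0.0543). Without RA-labelled replicate 3 the day 6 difference was called (-0.40, adjusted p = 0.0325). The other FGF2 probe set was lower with Dox at d0 (-0.27) but went the opposite way at day 6 (0.11), and was called in neither. Over time FGF2 fell by 3.52-fold in RA-labelled and 3.49-fold in Dox-labelled arrays, and its other probe set was called lower in both. FGF4, a ligand that human and mouse pluripotent cells express, read 50.5, 6.03 and 42.5 in Dox-labelled and 41.4, 6.16 and 54.2 in RA-labelled day 6 arrays, 309, 363 and 279 in d0 with Dox and 397, 329 and 352 in d0. Dox made no called difference at d0 (-0.18, 95% interval -1.23 to 0.87), and every day 6 array lay far below every day 0 array (log2 -3.07 and -2.91). The size of that fall depends on the pseudocount, since 1 array of each day 6 group lay under it. The other FGF4 probe set, with group means of at most 24.6, went the same way without being called (-0.59 and -0.83). FGF1 moved the other way over time, averaging 92.1 ± 19.1 in Dox-labelled and 111 ± 25.1 in RA-labelled day 6 arrays, 38.1 ± 14.5 in d0 with Dox and 63 ± 11 in d0. Its rise in RA-labelled arrays (0.68, adjusted p = 0.0255) was lost without d0 replicate 3 or RA-labelled replicate 2 or 3 (adjusted p up to 0.0922). At d0 its representing probe set was called lower with Dox only when replicate 1 of d0 with Dox was left out (-0.78, adjusted p = 0.049). Another FGF1 probe set was called lower there on all arrays (-1.07, adjusted p over probe sets = 0.0152). Its signal lay near or under the pseudocount, at 1.64 ± 0.573 in d0 with Dox and 22.2 ± 11.5 in d0. The remaining probe set read 0.19 without a call.

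FGF11, FGF12 and FGF13 belong to a subfamily that stays inside the cell and binds sodium channels instead of FGF receptors. FGF13 read 1841, 1852 and 1974 in Dox-labelled and 727, 737 and 666 in RA-labelled day 6 arrays, 3582, 3686 and 3576 in d0 with Dox and 3581, 3304 and 3406 in d0. The d0 groups overlapped (0.08, 95% interval -0.07 to 0.22), whereas the Dox-labelled day 6 arrays stood 2.63-fold above the RA-labelled ones (adjusted p = 4.62e-07). FGF12 was dimmer and had the same order at day 6, averaging 73.9 ± 19.5 in Dox-labelled and 35.1 ± 8.86 in RA-labelled day 6 arrays, 162 ± 26.7 in d0 with Dox and 196 ± 18.4 in d0 (day 6 log2 0.80, adjusted p = 0.0107). FGF11 rose over time, reading 422, 432 and 408 in Dox-labelled and 462, 456 and 432 in RA-labelled day 6 arrays, 315, 298 and 303 in d0 with Dox and 269, 261 and 257 in d0. Its small rise with Dox at d0 (0.21, adjusted p = 0.0459) was lost without any 1 of the 6 arrays (adjusted p up to 0.141), and its other probe set, under the pseudocount in every group, read -0.22 there.

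**Figure D3:**
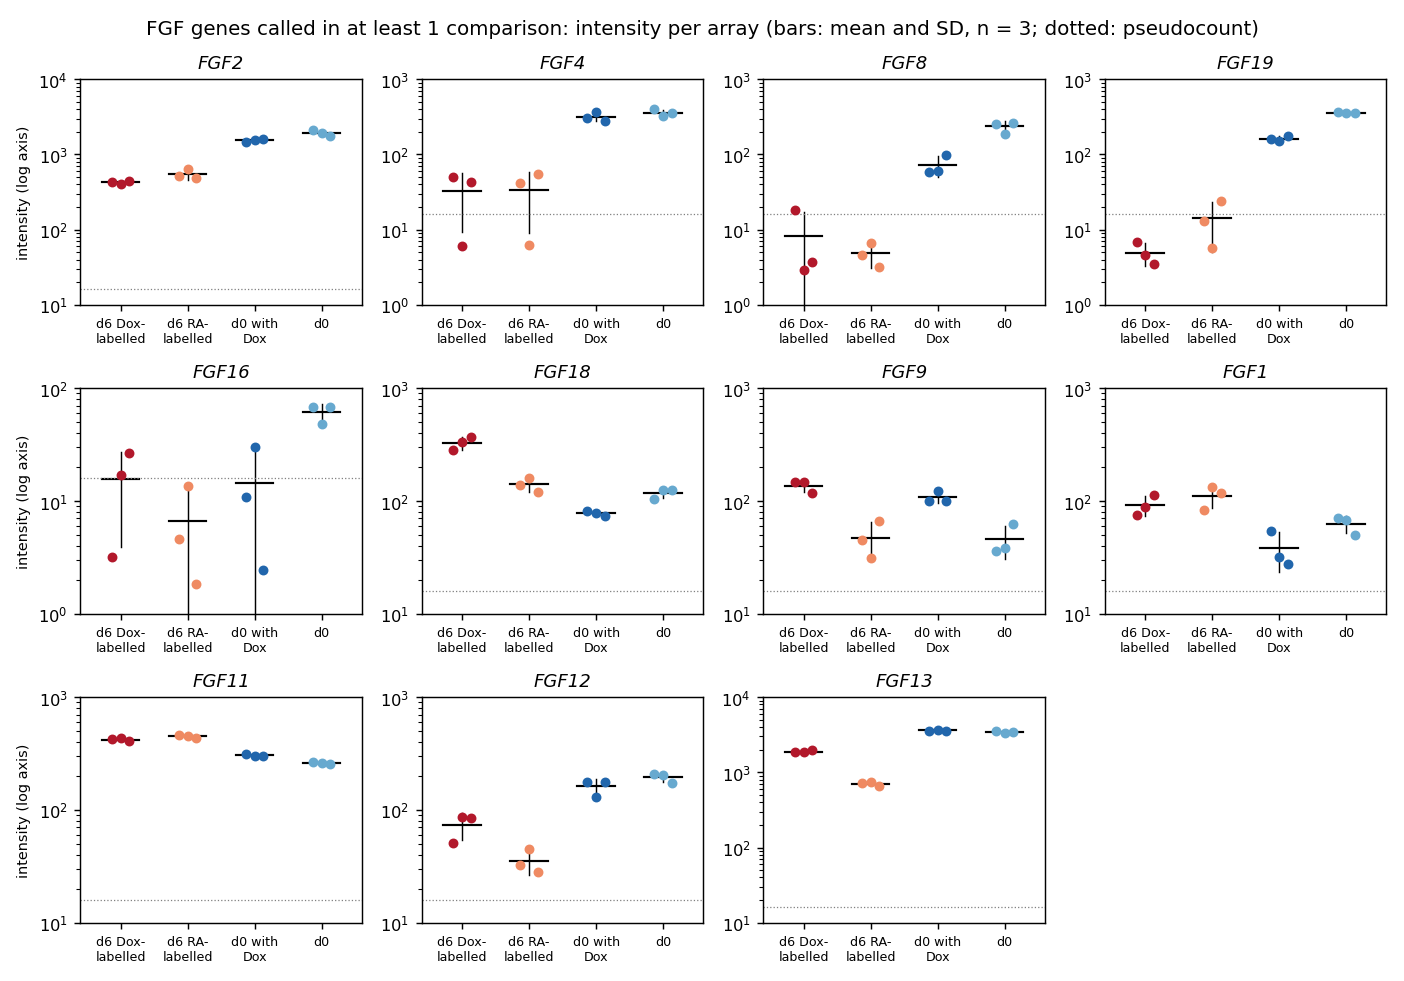
Intensity on a log axis of the 11 FGF genes called in at least 1 comparison, in each of the 12 arrays by group, with mean and SD (n = 3) as black bars (running off the foot of the axis where the mean minus the SD lies under it) and the pseudocount of 16 as a dotted line. FGF2, FGF4, FGF8 and FGF19 are low in both day 6 groups, and FGF9 is higher in both groups labelled Dox.

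The remaining 11 FGF genes, FGF3, FGF5, FGF6, FGF7, FGF10, FGF14, FGF17, FGF20, FGF21, FGF22 and FGF23, were called in none of the 4 comparisons, and nor was SPRY3. Among them FGF7 and FGF10 act on epithelia, FGF21 and FGF23 are hormones like FGF19, and FGF14 belongs with FGF13. All 12 lay under the median gene in every group, and FGF3, FGF7 and FGF21 had every group mean under the pseudocount, so that a change in them was hardly measurable here. The highest group mean among the 12 was that of FGF6 in RA-labelled arrays, 89.4 ± 60.2, where the arrays read 128, 20.1 and 120.1. Without RA-labelled replicate 2, the lowest, FGF6 was called lower in Dox-labelled than in RA-labelled arrays (-1.81, adjusted p = 0.021) and higher in RA-labelled arrays than in d0 (1.28, adjusted p = 0.0442). SPRY3 was called lower in Dox-labelled day 6 arrays than in d0 with Dox when replicate 3 of d0 with Dox was left out (-0.86, adjusted p = 0.0116).

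The Sprouty genes did not move together. SPRY4 read 372, 304 and 299 in Dox-labelled and 370.3, 414 and 435 in RA-labelled day 6 arrays, 463, 522 and 498 in d0 with Dox and 838, 913 and 939 in d0, and fell in each of the 4 comparisons. Its fall with Dox at d0 was -0.84 ± 0.10 (adjusted p = 0.00057). The day 6 groups overlapped by 1 array, and that fall (-0.31 ± 0.10, adjusted p = 0.0454) was lost without replicate 2 or 3 of either group (adjusted p up to 0.141). SPRY1 read 453, 462 and 478 in Dox-labelled and 161, 182 and 201 in RA-labelled day 6 arrays, 1137, 1186 and 1209 in d0 with Dox and 1368, 1222 and 1418 in d0. All arrays of d0 with Dox lay under those of d0 without a call (-0.18, adjusted p = 0.241), and at day 6 the Dox-labelled arrays were 2.44-fold brighter than the RA-labelled ones (adjusted p = 4.86e-06). The fall over time was 6.86-fold in RA-labelled arrays and 2.48-fold in Dox-labelled ones.

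SPRY2 read 3299, 3299.6 and 3375 in Dox-labelled and 2114, 2062 and 2127 in RA-labelled day 6 arrays, 2619, 2548 and 2509 in d0 with Dox and 2038, 1997 and 2297 in d0. It was the Sprouty gene that stood higher in both groups labelled Dox than in their partners, 0.28 ± 0.07 at d0 (adjusted p = 0.023) and 0.66 ± 0.07 at day 6 (adjusted p = 6.85e-05). The d0 call was lost without any 1 of the 6 arrays except d0 replicate 3 (adjusted p up to 0.0807) and with arrays centred on their medians (0.25, adjusted p = 0.0632). The RA-labelled arrays and d0 differed by 0.00 (95% interval -0.15 to 0.15).

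Of the Spred genes, SPRED2 and SPRED3 rose over time and SPRED1 did not. SPRED2 read 1621, 1489 and 1652 in Dox-labelled and 971, 1242 and 1378 in RA-labelled day 6 arrays, 643, 523 and 625 in d0 with Dox and 577, 451 and 627 in d0. All 6 day 6 arrays lay above all 6 day 0 arrays, with rises of 2.13-fold in RA-labelled and 2.62-fold in Dox-labelled arrays, while its 2 other probe sets lay under the pseudocount in every group (log2 -0.08 to 0.24). The day 6 difference was called without RA-labelled replicate 3 (0.52, adjusted p = 0.0498, against 0.42 and adjusted p = 0.0764 with all arrays). SPRED3 read 209, 356 and 352 in Dox-labelled and 364, 331 and 359.5 in RA-labelled day 6 arrays, 138, 131 and 141 in d0 with Dox and 139, 78.2 and 145 in d0, again higher in every day 6 array (1.46 and 1.04). SPRED1 read 1724, 1750.1 and 1896 in Dox-labelled and 1898, 2096 and 2013 in RA-labelled day 6 arrays, 1992, 2141 and 1939 in d0 with Dox and 2227, 2954 and 2417 in d0. Its fall in RA-labelled arrays (-0.33, adjusted p = 0.0228) was lost without d0 replicate 2 or RA-labelled replicate 1 or 3 (adjusted p up to 0.0748), and it was called lower with Dox at d0 when d0 replicate 1 was left out (-0.40, adjusted p = 0.0458).

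Of the DUSP genes, DUSP5 was called lower with Dox at d0. DUSP5, a nuclear ERK phosphatase, read 786, 752 and 903 in Dox-labelled and 611, 702 and 671 in RA-labelled day 6 arrays, 519, 447 and 433 in d0 with Dox and 698, 656 and 765 in d0. The arrays of d0 with Dox were the lowest of all 12, at -0.58 ± 0.10 against d0 (adjusted p = 0.00509), and the Dox-labelled day 6 arrays rose above them by 0.78 ± 0.10 (adjusted p = 0.000118). DUSP4, also nuclear, read 226, 236 and 247 in Dox-labelled and 154, 166 and 159 in RA-labelled day 6 arrays, 208, 259.5 and 222 in d0 with Dox and 369.8, 253 and 264 in d0. The RA-labelled arrays were its lowest, -0.81 against d0 (adjusted p = 0.000473). Dox-labelled day 6 arrays stood 0.52 above them (adjusted p = 0.0165), a call lost without RA-labelled replicate 1 or Dox-labelled replicate 3 (adjusted p up to 0.0532). DUSP6, the cytoplasmic ERK phosphatase, varied least of the 3 and read 2057, 2040.4 and 2595 in Dox-labelled and 1979, 2144 and 1944 in RA-labelled day 6 arrays, 2535, 2275 and 2282 in d0 with Dox and 2854, 2810.0 and 2559.5 in d0. It fell in RA-labelled arrays against d0 (-0.44 ± 0.10, adjusted p = 0.0049) and was not called with Dox at d0 (-0.21, adjusted p = 0.229), though the d0 groups did not overlap. There 1 of its 2 other probe sets was called lower (-0.50, adjusted p over probe sets = 0.0143), as was the mean of its probe sets (-0.32, adjusted p = 0.0301).

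**Figure D4:**
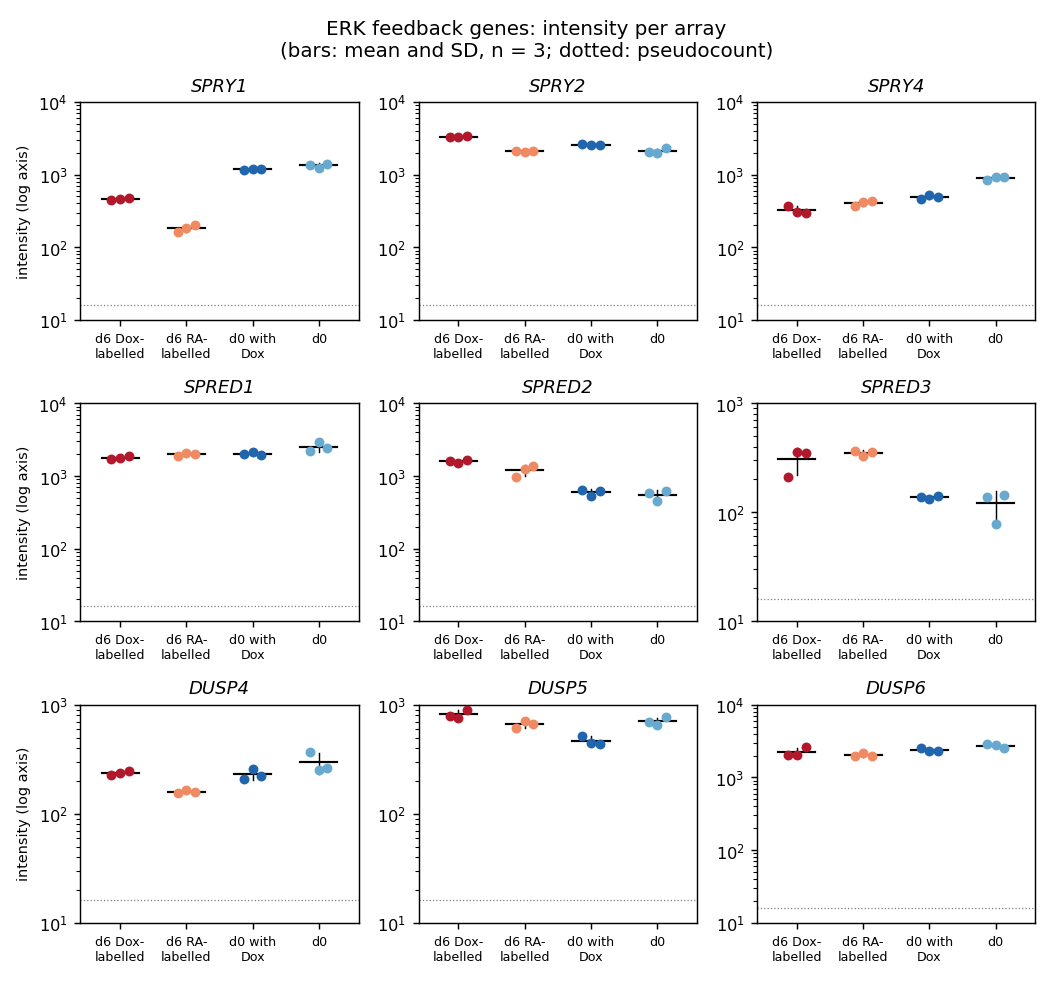
Intensity on a log axis of SPRY1, SPRY2, SPRY4, SPRED1 to SPRED3 and DUSP4 to DUSP6 in each of the 12 arrays by group, with mean and SD (n = 3) as black bars and the pseudocount of 16 as a dotted line. SPRY4 is highest in d0, SPRY1 is low at day 6, and SPRED2 and SPRED3 are higher in all 6 day 6 arrays than at day 0.

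Beside these genes moved a mark of RNA quality and markers of other cell types, whose part in the results was not tested. Dividing the 3' by the 5' control probe set of ACTB gave 2.33 ± 0.058 in Dox-labelled and 2.59 ± 0.29 in RA-labelled day 6 arrays, 3.86 ± 0.0111 in d0 with Dox and 3.24 ± 0.139 in d0. For GAPDH the ratio varied less, at 1.46 ± 0.023 in Dox-labelled and 1.35 ± 0.0817 in RA-labelled day 6 arrays. It was 1.62 ± 0.0554 in d0 with Dox and 1.53 ± 0.0577 in d0, so the day 6 groups stood in the opposite order to ACTB. Summed over 4 endoderm markers, the signal was 8010 to 8520 in Dox-labelled and 1590 to 1940 in RA-labelled day 6 arrays, 423 to 475 in d0 with Dox and 349 to 462 in d0. Of these 4, only 1 was called between the day 6 groups, higher in Dox-labelled arrays. Over time 1 rose in RA-labelled and 2 rose in Dox-labelled arrays. Over 4 trophoblast markers the sum was 10600 to 10800 in Dox-labelled and 4490 to 4990 in RA-labelled day 6 arrays, 873 to 922 in d0 with Dox and 495 to 591 in d0, with CGA under the pseudocount in every group. Between the day 6 groups 2 of these 4 were called, each higher in Dox-labelled arrays. HAND1 is in this list and also in that of cardiac and lateral mesoderm, so those 2 sums share a gene. Over 5 mesenchyme markers it was 83500 to 88000 in Dox-labelled and 77200 to 89400 in RA-labelled day 6 arrays, 33000 to 33900 in d0 with Dox and 31200 to 32900 in d0. Of these 5, 4 rose and 1 fell in each comparison over time. Primitive streak markers summed to no more than 622 on any array, with GSC under the pseudocount in every group. Over 5 neural progenitor markers the sum was 7390 to 7860 in Dox-labelled and 7280 to 8240 in RA-labelled day 6 arrays, 4370 to 4870 in d0 with Dox and 2970 to 3240 in d0. Of these 5, 1 rose and 2 fell in each comparison over time. Over 4 neural crest markers it was 1910 to 2540 in Dox-labelled and 751 to 820 in RA-labelled day 6 arrays, 1270 to 1370 in d0 with Dox and 725 to 794 in d0. Of these 4, 2 rose and 1 fell in RA-labelled arrays against d0, and 1 rose and 2 fell in Dox-labelled day 6 arrays against d0 with Dox. Between the day 6 groups 1 was called higher and 1 lower in Dox-labelled arrays, where FOXD3 lay under the pseudocount. Cardiac and lateral mesoderm markers, 5 in number, summed to 25000 to 26600 in Dox-labelled and 17800 to 20000 in RA-labelled day 6 arrays, 9090 to 9410 in d0 with Dox and 12000 to 12900 in d0. The 3 endothelial markers summed to 569 to 706 in Dox-labelled and 468 to 572 in RA-labelled day 6 arrays, 1120 to 1380 in d0 with Dox and 2050 to 2150 in d0. Of these 3, 2 rose and 1 fell in RA-labelled arrays against d0, against the direction of the sum. In Dox-labelled day 6 arrays against d0 with Dox only 1 was called, and it fell.

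Whether Dox moved a gene differently on the 2 days was tested as the difference between the day 6 and the d0 log2 fold changes, which share no array but have different comparators, retinoic acid at day 6 and no agent at d0. It was called for 13 of the 36 genes, 10 with a higher value at day 6 and 3 with a lower one (11.7% and 12.5% of all genes). Under the labels as given, FGFR3 had the lowest difference (-2.23 ± 0.12, adjusted p = 1.61e-06), rising with Dox at d0 and standing lower in the Dox-labelled arrays at day 6. FGFR1 followed (-1.24 ± 0.14, adjusted p = 0.000186). On the other side FGF16, FGF8, FGF18 and SPRY1 had the highest (1.87, 1.69, 1.66 and 1.47). FGF2 and FGF9 showed no called difference (0.01, 95% interval -0.33 to 0.35, and 0.27, -0.41 to 0.94). Those of FGF16 and FGF8 depend on signals near the pseudocount. With the day 6 labels exchanged, 5 genes had a called higher value at day 6 and 8 a lower one, and FGF9 had the lowest (-2.33, adjusted p = 0.000475). FGFR3 (-1.46), FGFR1 (-0.94), FGF8 (1.36) and SPRY4 (1.15) kept their call and direction under that exchange, while FGF18 (-0.63), SPRY1 (-1.11), SPRY2 (-0.94) and FGF13 (-1.47) were called the other way. FGF2 was then called at 0.66 (adjusted p = 0.0147).

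**Figure D5:**
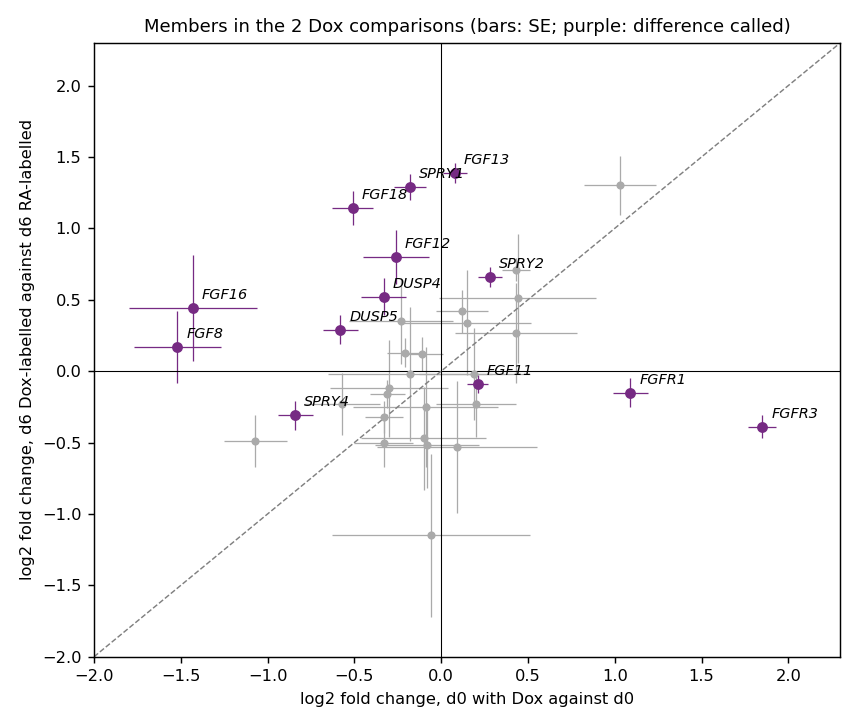
Log2 fold change of d0 with Dox against d0 (x axis) and of Dox-labelled against RA-labelled day 6 arrays (y axis) for the 36 genes, with SE bars; purple points with names mark a called difference between the comparisons and the dashed line equal values. FGFR3 and FGFR1 lie at the right under the line, FGF18, SPRY1 and FGF13 above it.

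The other genes of the pathway were counted in 3 lists. Of 24 measured ERK-induced targets, 2 rose, 6 fell and 16 did not pass with Dox at d0 (median log2 -0.21, against 0.03 over all genes), which is 33.3% called where 12.9% of all genes were. EGR1, an immediate early factor, was the largest rise (894 ± 56.2 in d0 with Dox and 316 ± 10 in d0, log2 1.45, adjusted p = 1.79e-06), and MYC the largest fall (1083 ± 105 in d0 with Dox and 2938 ± 324 in d0, log2 -1.43, adjusted p = 3.19e-05). At day 6, 8 were higher and 6 lower in Dox-labelled arrays, led by EGR3 (2.21) and IER3 (-1.05), which is 58.3% where 25.9% of all genes were called. Over time 15 rose and 5 fell in RA-labelled arrays (median 1.37), with EGR1 (3.36) and the ETS factor ETV1 (-2.38) at the ends, and 19 rose and 2 fell in Dox-labelled ones (median 1.60), with JUNB (3.70) and the FGF antagonist IL17RD (-1.63) at the ends. The shares called over time were 83.3% in RA-labelled and 87.5% in Dox-labelled arrays, where 50.5% and 46.1% of all genes were called.

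Of 25 measured cofactor and heparan sulfate genes, 8 rose, 2 fell and 15 did not pass with Dox at d0 (median 0.27). FLRT3, a membrane protein that binds FGF receptors, had a rise (2237 ± 22.2 in d0 with Dox and 546 ± 73.8 in d0, log2 2.01, adjusted p = 0.00012) equal in log2 size to that of FGFBP3 (2.01, adjusted p = 4.44e-06), a carrier protein of FGFs, and SULF1, which strips sulfate from heparan sulfate, fell more (-0.82) than the other gene. At day 6, 6 were higher and 7 lower in Dox-labelled arrays, with the glypican GPC3 (2.47) and FLRT2 (-1.49) at the ends. Over time 13 rose and 7 fell in RA-labelled arrays, FLRT2 most (4.12) against GPC3 (-2.21). In Dox-labelled arrays 11 rose and 5 fell, FLRT2 (1.84) against FGFBP3 (-4.64). The shares called were 40% with Dox at d0, 52% at day 6, 80% in RA-labelled arrays and 64% in Dox-labelled arrays over time, where 12.9%, 25.9%, 50.5% and 46.1% of all genes were called. Of 26 intracellular cascade genes, 19 were measured. With Dox at d0, 1 rose, the ERK-activated kinase RPS6KA3 (0.45, adjusted p = 0.0399), and 18 did not pass. At day 6, 2 were higher and 7 lower in Dox-labelled arrays, RPS6KA3 (0.69) and the scaffold KSR1 (-1.01) at the ends. Over time 12 rose and 2 fell in RA-labelled arrays, RPS6KA3 (1.58) against RASA2 (-0.61), a RAS GTPase activating protein, and 9 rose and 1 fell in Dox-labelled arrays, RPS6KA3 (1.82) against RPS6KA1 (-0.86). The cascade shares were 5.26% at d0, 47.4% at day 6, 73.7% in RA-labelled arrays and 52.6% in Dox-labelled arrays over time, the first under the share of all genes given above and the last near it.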

How the data were processed

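RNA of 12 H9 samples was read on arrays of 54675 probe sets. The authors deposited 1 linear intensity per probe set. Their background correction and probe summary: not given in the sources used here. With 2% of probe sets trimmed at either end, every array's mean was 500.1, as after scaling to a target, so signal is relative to the rest of an array. Of the probe sets, 41097 had a single gene symbol in the platform annotation, 1801 several and 11777 were not listed. Symbols were updated through the gene ID for 41043 (RefSeq, GRCh38.p14). Group means over all 12 arrays were fitted in limma 3.58.1 (lmFit, then eBayes, under R 4.3.3), leaving 8 residual degrees of freedom, checked on simulated data. The members, lists and comparisons were chosen with earlier results of these data known. Per-array values are given for genes called in at least 1 comparison whose highest group mean reached the median gene. Of the other lists, the largest called rise and fall are named. Deviations of same-numbered arrays of different groups correlated weakly at most (r = -0.009 to 0.036, median 0.007, against a median of 0 for different numbers). No pairing was used, though 8 of 12 arrays correlated best with an array of their own number. Scan dates and batches were not analysed here.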

Additional observations from a re-analysis of the deposited data

Results flagged for a closer look

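For 13 genes the Dox-labelled against RA-labelled difference at day 6 and the Dox difference at d0 were not alike by a test of the difference itself (limma, adjusted over all genes). The comparators differ, retinoic acid at day 6 and none at d0. The 13 are 36.1% of the 36 genes, where 24.2% of all genes were called (11.7% higher and 12.5% lower). Under the day 6 labels as given, the day 6 log2 fold change was the higher one for FGF16 by 1.87 (adjusted p = 0.0256), FGF8 by 1.69 (0.00621), FGF18 by 1.66 (0.00012), SPRY1 by 1.47 (3.46e-05) and FGF13 by 1.32 (1.06e-05). It was also higher for FGF12 by 1.06 (0.0164), DUSP5 by 0.87 (0.00186), DUSP4 by 0.85 (0.0088), SPRY4 by 0.52 (0.0231) and SPRY2 by 0.38 (0.0156). The day 6 value minus the d0 value was -2.23 for FGFR3 (adjusted p = 1.61e-06), -1.24 for FGFR1 (0.000186) and -0.30 for FGF11 (0.025).

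With the day 6 labels exchanged, FGFR3 (-1.46), FGFR1 (-0.94), FGF8 (1.36) and SPRY4 (1.15) were called in the same direction and FGF13, FGF18, SPRY1 and SPRY2 in the other. FGF16, FGF12, FGF11, DUSP4 and DUSP5 were then not called.

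Leaving out 1 array could end 3 of these calls: FGF16 (8 of 12 arrays, adjusted p up to 0.0604), FGF11 (5 of 12, up to 0.0621) and SPRY4 (3 of 12, up to 0.0564). Leaving out 1 array made a call of FGF19 (0.81, adjusted p = 0.0114), FGF21 (0.99, adjusted p = 0.0175) and FGFR2 (0.36, adjusted p = 0.0292). With a pseudocount of 1 those of FGF16 (3.57, adjusted p = 0.0873) and FGF8 (2.03, adjusted p = 0.0943) were lost.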

How the results depend on the processing

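Of the 36 genes, 6 were called lower with Dox at d0, and 3 with a pseudocount of 1. Called lower at day 6 in Dox-labelled against RA-labelled arrays were 2, against 1 with median centring, averaging over probe sets or the 6 arrays alone, and 4 with only genes at or above the median gene or a trended robust variance. With averaging the gene called was FGFR4, and the calls of FGFR3 and SPRY4 were lost. Leaving out 1 array gave 1 to 3. Restricting the test to genes at or above the median gene left 2 of 4 rises in RA-labelled arrays against d0 and 4 of 7 in Dox-labelled day 6 arrays against d0 with Dox, since dimmer genes were not tested. Among all genes 2552 were called with Dox at d0, and 1522 on the 6 arrays alone. FGF11 at d0 turned to -0.01 when its probe sets were averaged. Other counts of called members stayed within 1.5 times.

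Taking the replicate number as a block gave 5 rises and 6 falls with Dox at d0, 8 and 2 at day 6, 4 and 16 in RA-labelled arrays against d0, and 7 and 12 in Dox-labelled day 6 arrays against d0 with Dox. It ended the calls of FGF11 at d0 and SPRY4 at day 6 and added FGFR4 at day 6 (adjusted p = 0.032). Same-numbered arrays correlated best with their own number in 8 of 12 cases.

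Median centring moved the median of all genes by 0.14 in Dox-labelled day 6 arrays against d0 with Dox, where 60% instead of 48.2% of called genes were higher, and turned no called member. Exchanging the day 6 labels, an alternative chosen after seeing the data, left all 4 receptors, FGF2, FGF4, FGF8 and FGF19 lower over time. It turned SPRY2 to 0.65 against d0 and to -0.28 against d0 with Dox, and DUSP4 to -0.48 and FGF9 to -1.0 against d0 with Dox. Against d0 it made calls of FGF18 (1.35, adjusted p = 6.61e-06) and FGF9 (1.33, adjusted p = 0.000418) and ended those of DUSP4 (-0.29, adjusted p = 0.105) and FGF1 (0.45, adjusted p = 0.123). In the difference between the day 6 and d0 comparisons it gave 5 higher and 8 lower calls, against 10 and 3, and turned FGF9 to -2.33, FGF13 to -1.47, FGFR2 to -1.14, SPRY1 to -1.11, SPRY2 to -0.94, FGF18 to -0.63, FGF12 to -0.55, DUSP4 to -0.19 and FGFR4 to 0.83. Signal near the pseudocount limits FGF8, FGF16, FGF19 and, at day 6, FGF4.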
